A study of Sus scrofa with 48 samples.

Results

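The comparison described here asked whether the response of pig fat to fasting differed between 2 forms of the melanocortin 4 receptor, MC4R. It was a difference of differences on the log2 scale, N298 fasted minus N298 ad lib, less D298 fasted minus D298 ad lib, and is called the interaction. A negative interaction means that the signal of a gene after fasting, relative to fed, was lower in N298 than in D298 fat. All 24 fat arrays of the 48 arrays in the study entered it, and the other 24 were of liver. Every probe set on the array other than the spiked-in and hybridisation controls was included, which gave 23999 probe sets. A probe set is the group of short probes that reads 1 transcript.

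The animals were 24 Yorkshire gilts, young female pigs, 6 months old, from a line bred for high feed efficiency by selection on low residual feed intake. The 4 groups of 6 fat arrays were N298 fasted, gilts homozygous for the N298 form of MC4R with feed withheld for 3 days; N298 ad lib, gilts of that genotype with free access to feed over the same 3 days; D298 fasted, gilts homozygous for the wildtype D298 form and fasted; and D298 ad lib, D298 gilts with free access to feed. All groups shared the line, sex, age and housing, so the comparison speaks for gilts of this line and for this length of fast, and no heterozygous gilts were included. Each array was of 1 gilt, the groups carried replicate numbers 1 to 6, and having only 6 gilts a group limits how precise the values are. The design was described as a randomised block design with both factors crossed.

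MC4R is a receptor in brain cells that lowers appetite and raises energy use when it binds melanocortin peptides made from the precursor POMC, and agouti-related peptide blocks it. Signals from these brain circuits reach fat through sympathetic nerves and through changes in feed intake, insulin and other hormones. In fed fat, insulin favours uptake of glucose and synthesis and storage of fatty acids; in fasting, insulin is low and adrenergic signals raise cyclic AMP, so that stored triglyceride is broken down and fatty acids and glycerol are released. The D298N variant of pig MC4R has been linked in earlier breeding studies with fatness, growth and feed intake.

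The deposited signals were on 1 scale, with array medians between 159 and 192, and arrays correlated with their own group at a median of 0.92 to 0.94. The tissue label was checked against marker transcripts: the mean log2 signal over 10 measured adipocyte markers, among them leptin, adiponectin and hormone-sensitive lipase, lay between 11.25 and 11.90 on all arrays. Transcripts of other tissues varied between arrays. The mean over 20 skeletal muscle markers ranged over 5.87 to 11.83 in N298 fasted, 4.89 to 11.68 in N298 ad lib, 5.38 to 12.45 in D298 fasted and 5.73 to 11.47 in D298 ad lib fat, so every group held arrays with much and with little muscle transcript. Mean hepatocyte marker signal, over 13 genes such as those of albumin and apolipoproteins, was 9.76 and 9.55 in N298 ad lib replicates 6 and 3, 9.62 in D298 fasted replicate 5 and 9.47 in D298 ad lib replicate 4, against at most 6.42 on the other 20 arrays. Macrophage markers stood highest in N298 ad lib replicate 1, with a mean of 9.53 against at most 8.68 elsewhere. D298 ad lib replicate 4 also had the highest ratio of 3' to 5' signal for beta actin, a measure of RNA length, at 9.82 against 2.36 to 4.87 on the others. The same ratio for GAPDH was highest in N298 fasted fat, with a median of 4.09 and a range of 1.57 to 5.44; the medians were 2.20 in N298 ad lib, 2.52 in D298 fasted and 2.34 in D298 ad lib fat, with ranges of 1.52 to 2.84, 1.51 to 5.07 and 2.01 to 2.79. Its part in the interactions was not tested. D298 ad lib replicate 1 stood apart in its metabolic genes, with the lowest mean among the fed arrays for fatty acid synthesis (11.00), tricarboxylic acid cycle (11.43) and oxidative phosphorylation genes (11.73). The interaction was therefore also computed without that array and without the 4 arrays with hepatocyte transcripts. In a whole tissue, fewer cells of a type and less RNA per cell cannot be told apart.

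**Figure D1:**
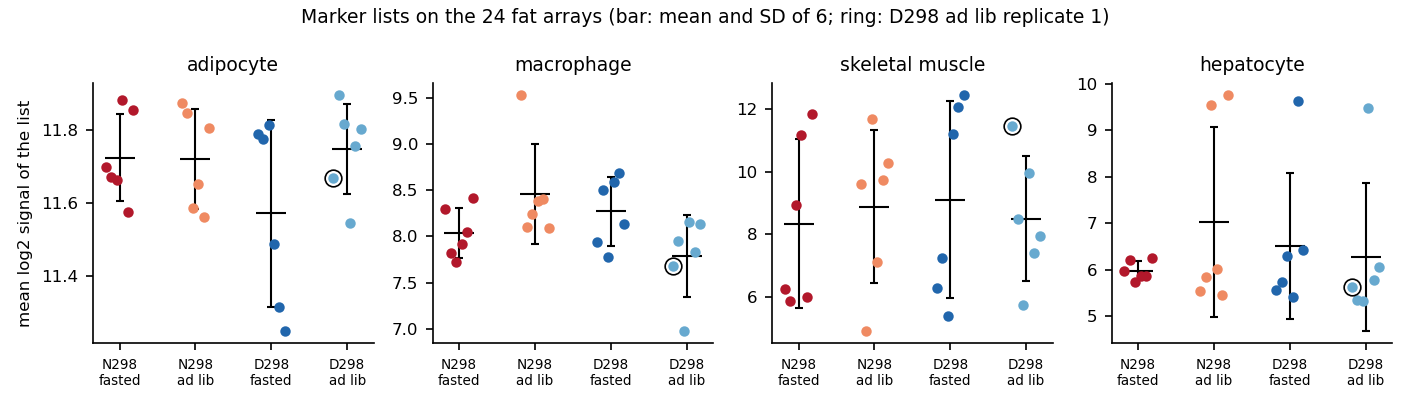
Mean log2 signal of 4 sets of cell type markers (panels: adipocyte, macrophage, skeletal muscle, hepatocyte) on each fat array, by group. Each point is 1 array; adipocyte markers lie between 11.25 and 11.90 throughout, 4 arrays stand above 9 for hepatocyte markers, and skeletal muscle markers spread widely in every group.

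Fasting moved many transcripts in fat of both genotypes, and no probe set showed a genotype difference in that response after adjustment. At an adjusted p under 0.05 (limma, Benjamini-Hochberg over the 23999 probe sets) 3718 probe sets, 15.5%, changed on fasting in N298 fat, 2176 upward and 1542 downward. In D298 fat 3034 probe sets, 12.6%, changed, 1576 upward and 1458 downward. The direction split depended on scaling: with each array centred on its median signal it was 1435 upward and 1791 downward in N298 fat, and 828 upward and 1838 downward in D298 fat. For the interaction 0 probe sets, 0%, passed the same threshold, with a smallest adjusted p of 0.805. An unadjusted p under 0.05 was found for 1368 probe sets, 5.7%, of which 676 were positive and 692 negative. Among 6765 named genes, each read by its brightest probe set, 251 had a negative interaction at that level (3.71%) and 203 a positive one (3%). The median interaction over all probe sets was 0.01, with quartiles of -0.23 and 0.22.

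The responses of both genotypes ran in the same direction for nearly all transcripts that changed. A total of 1985 probe sets were called in both genotypes, out of 4767 called in either, and all 1985 had the same sign. Of the 3718 called in N298 fat 3590 had the same sign in D298 fat, which is 96.6%. Of the 3034 called in D298 fat 2941 had the same sign in N298 fat, which is 96.9%. Over all 23999 probe sets the share with the same sign was 70.3%. Across the 11999 probe sets above the median signal, the fasting response in N298 fat had a Pearson correlation of 0.80 with that in D298 fat; across all 23999 it was 0.42. The points are probe sets on shared arrays, not independent replicates, and no array enters both responses. For the 6048 probe sets called for the fasting response averaged over genotypes, 57.5% had the larger response in N298 fat; without D298 ad lib replicate 1 the share was 47.8% of 6270.

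The 95% intervals show the precision of each probe set taken alone, not the size that the adjusted test could have called. FBLN1, at -1.11, and C3, at -2.51, had intervals of -1.59 to -0.62 and -3.94 to -1.07. Both had an adjusted p of 0.805 (limma). Above the median signal the 95% interval of the interaction had a median half-width of 0.41 on the log2 scale, and below it the half-width was 1.37. For 5051 of the 6048 probe sets called for the mean fasting response the whole interval lay between -1 and 1, on the log2 scale, so a genotype difference in response larger than 1 lay outside it. Over all 23999 probe sets that held for 13139.

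**Figure D2:**
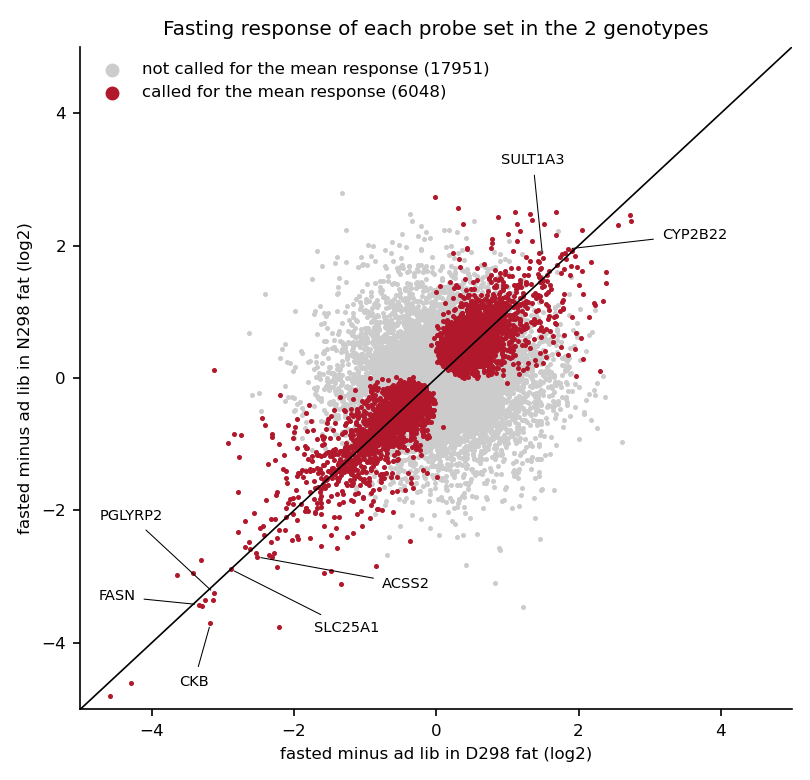
Log2 fasting response in N298 fat (vertical axis) against that in D298 fat (horizontal axis), 1 point for each of the 23999 probe sets, red where the mean response over both genotypes passed the test, with the line of equal responses. The labelled large responders FASN, CKB, PGLYRP2, SLC25A1 and ACSS2 lie far down near the line, and SULT1A3 and CYP2B22 far up near it; Pearson's r is 0.42 over all probe sets and 0.80 over those above the median signal.

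Among named genes above the median signal, the 5 largest falls on fasting were FASN, CKB, PGLYRP2, SLC25A1 and ACSS2, of which FASN, SLC25A1 and ACSS2 serve fatty acid synthesis. In the values that follow, 3 signals for a group are the lowest, the median and the highest of its 6 arrays, in the deposited linear units, and can be compared between groups but not between genes. FASN, fatty acid synthase, had signals of 1353, 2145 and 2813 in N298 fasted fat and 19424, 21433 and 23668 in N298 ad lib fat. D298 fat had FASN signals of 1296, 1481 and 5638 when fasted and 14224, 22339 and 24665 when fed. No fasted array reached any fed array of its genotype. FASN responded to fasting by -3.42 in N298 fat (adjusted p 9.69e-08) and -3.34 in D298 fat (adjusted p 1.72e-07). FASN had an interaction of -0.08 (SE 0.38, 95% interval -0.86 to 0.70, unadjusted p 0.828), and its 3 other probe sets gave interactions of -0.12, -0.22 and -0.32. SLC25A1, the carrier that exports citrate from mitochondria as the carbon source of fatty acids, had signals of 1497, 1779.7 and 2123 in N298 fasted fat and 10336, 12479 and 17790.5 in N298 ad lib fat. D298 fat had SLC25A1 signals of 1334, 1735 and 2178 when fasted and 5623, 14198 and 17448 when fed. Both genotypes separated fasted from fed arrays fully for SLC25A1. SLC25A1 responses were -2.89 in N298 fat and -2.89 in D298 fat, with an interaction of 0.00 (95% interval -0.56 to 0.57). ACSS2, which makes acetyl-CoA from acetate in the cytosol, had responses of -2.70 in N298 fat and -2.52 in D298 fat and an interaction of -0.18 (95% interval -0.84 to 0.49).

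CKB, the brain-type creatine kinase, which buffers ATP, had signals of 148, 229 and 285 in N298 fasted fat and 1858, 2736 and 5144 in N298 ad lib fat. D298 fat had CKB signals of 98.2, 225 and 285 when fasted and 561, 2119.9 and 3887 when fed. Fasted arrays lay below all fed arrays in both genotypes. The CKB response was -3.70 in N298 fat (adjusted p 2.6e-07) and -3.17 in D298 fat (adjusted p 1.96e-06), and the interaction -0.53 (95% interval -1.47 to 0.40); without D298 ad lib replicate 1 it was -0.20. PGLYRP2, an enzyme that cleaves bacterial peptidoglycan, had responses of -3.25 in N298 fat and -3.13 in D298 fat and an interaction of -0.12 (95% interval -1.03 to 0.79).

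The 5 largest rises among those genes were CYP2B22, KLF11, SULT1A3, AQP3 and HSD3B1. SULT1A3, a sulfotransferase of phenols and catecholamines in humans, had signals of 8622, 11026 and 13126 in N298 fasted fat and 2403, 3059 and 4149 in N298 ad lib fat. D298 fat had SULT1A3 signals of 7482, 9203 and 11224 when fasted and 2515, 3175 and 5369 when fed. SULT1A3 was higher on all fasted than on all fed arrays in each genotype, with responses of 1.82 in N298 fat and 1.496 in D298 fat and an interaction of 0.32 (95% interval -0.11 to 0.75). HSD3B1, a steroid-converting dehydrogenase, had signals of 465, 625 and 994 in N298 fasted fat and 139, 191 and 235 in N298 ad lib fat. D298 fat had HSD3B1 signals of 256, 420.1 and 827 when fasted and 99.8, 231 and 324 when fed. HSD3B1 groups were apart in N298 fat and overlapped in D298 fat. HSD3B1 had an interaction of 0.56 (SE 0.30, 95% interval -0.06 to 1.18, unadjusted p 0.0759); its dimmer second probe set gave -0.25. AQP3, a channel for water and glycerol, responded by 1.64 in N298 fat and 1.45 in D298 fat, with an interaction of 0.19 (95% interval -0.90 to 1.28). KLF11, a transcription factor, responded by 1.58 in N298 fat and 1.75 in D298 fat, with an interaction of -0.17 (95% interval -1.08 to 0.75), and its other probe set gave 0.08. CYP2B22, a cytochrome P450, responded by 1.95 in N298 fat and 1.85 in D298 fat, with an interaction of 0.10 (95% interval -0.97 to 1.17). Each of the 10 was called for fasting in both genotypes by limma, and each interaction interval spans 0.

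**Figure D3:**
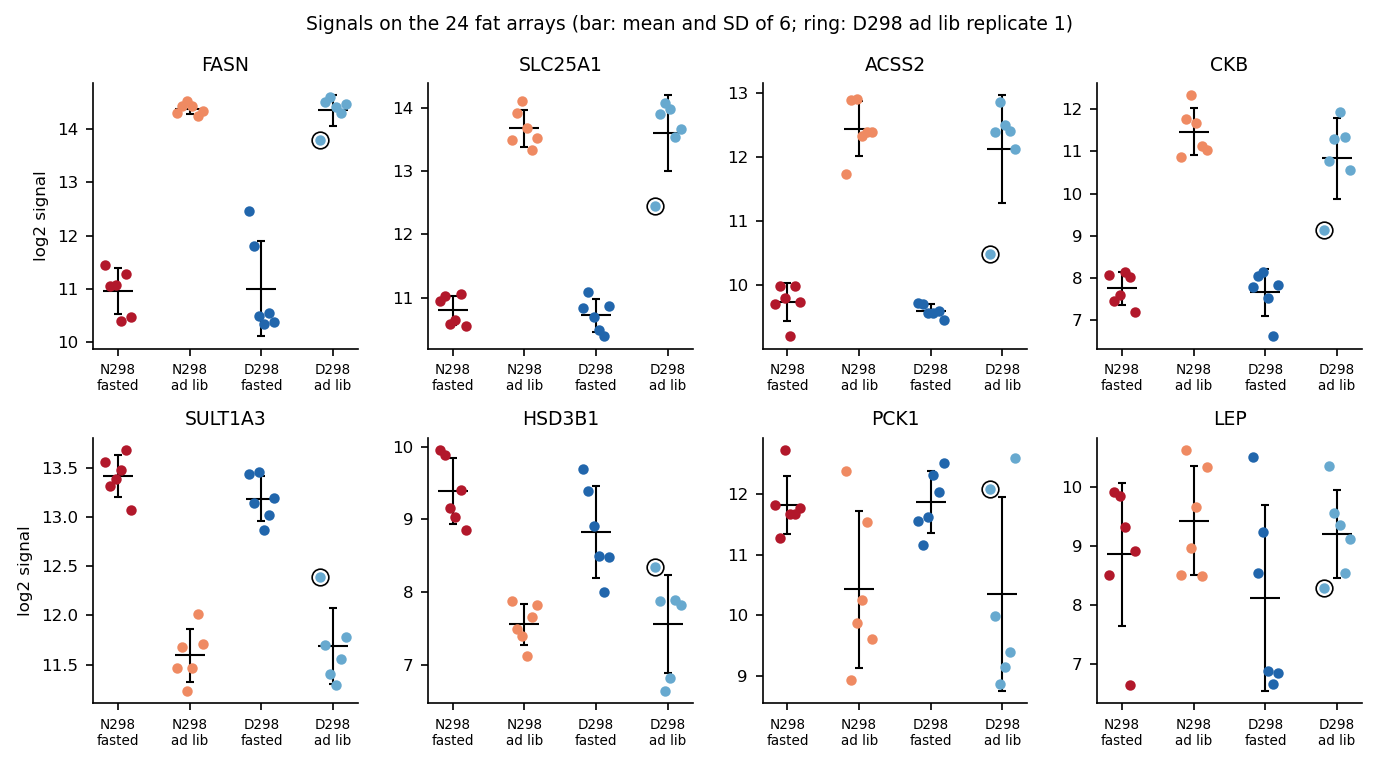
Log2 signal of 8 genes on each fat array, 1 panel per gene, in the order N298 fasted, N298 ad lib, D298 fasted, D298 ad lib; points are arrays, bars the mean and SD of 6, and the ring marks D298 ad lib replicate 1. FASN, SLC25A1, ACSS2 and CKB are low and SULT1A3 and HSD3B1 high in fasted fat of both genotypes, while PCK1 and LEP spread widely within groups.

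Most genes of fatty acid synthesis fell in both genotypes, and the median interaction was 0.01. Of the 14 measured, 10 fell and 1 rose in N298 fat and 10 fell in D298 fat at an adjusted p under 0.05 (limma), where 12.8% of all genes fell and 9.71% rose in N298 fat, and 11.7% fell and 7.44% rose in D298 fat, with median responses of -1.42 in N298 fat and -1.41 in D298 fat. No member had an unadjusted interaction p under 0.05, and for 9 of 14 the 95% interval lay within -1 to 1. SCD, the desaturase that makes oleate, responded by -2.04 in N298 fat and -2.56 in D298 fat, with an interaction of 0.52 (95% interval -0.37 to 1.42). ACACA, acetyl-CoA carboxylase, responded by -2.65 in N298 fat and -2.29 in D298 fat, with an interaction of -0.36 (95% interval -1.27 to 0.55). TKT, a pentose phosphate enzyme, responded by -0.91 in N298 fat and -1.20 in D298 fat, with an interaction of 0.29 (95% interval -0.16 to 0.74). SREBF1, a regulator of lipid synthesis genes, responded by -1.34 in N298 fat and -1.21 in D298 fat, with an interaction of -0.13 (95% interval -1.19 to 0.93). PC, pyruvate carboxylase, was the member that rose in N298 fat, by 0.49 (adjusted p 0.00204), against a value of 0.28 in D298 fat (adjusted p 0.0833). Without D298 ad lib replicate 1, the fed array with the least signal for these genes, the median interaction of the list was 0.23. In that fit 2 of the 14 were positive at an unadjusted p under 0.05, against 4.18% of all genes.

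Cholesterol synthesis and uptake genes also fell: of 12 measured, 7 fell in N298 and 8 in D298 fat, against 12.8% and 11.7% of all genes. Their median interaction was -0.03. INSIG1, a protein of the endoplasmic reticulum that restrains sterol and fatty acid synthesis, had signals of 1832, 2109 and 3214 in N298 fasted fat and 3259, 3733 and 5543 in N298 ad lib fat. D298 fat had INSIG1 signals of 1521, 1819 and 1958 when fasted and 3206, 4157 and 5786 when fed. Fasted INSIG1 signals lay below the fed ones without overlap in both genotypes, with responses of -0.82 in N298 fat and -1.29 in D298 fat. INSIG1 had an interaction of 0.47 (SE 0.19, 95% interval 0.07 to 0.86, unadjusted p 0.0224). Triglyceride synthesis and fatty acid uptake genes had a median interaction of 0.20, 12 of 14 positive, and responses of -0.28 in N298 fat and -0.36 in D298 fat in the median. ACSL1, which activates long-chain fatty acids, fell in both, with responses of -1.07 in N298 fat and -1.42 in D298 fat and an interaction of 0.35 (SE 0.16, unadjusted p 0.0408). FABP5, a fatty acid binding protein, had an interaction of 0.24 (SE 0.14, unadjusted p 0.0995).

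Mitochondrial genes fell on fasting in both genotypes. Of 33 oxidative phosphorylation genes 30 fell in N298 and 30 in D298 fat, against 12.8% and 11.7% of all genes. Their median responses were -0.77 in N298 fat and -0.84 in D298 fat, with a median interaction of 0.03. Of 22 tricarboxylic acid cycle genes 16 fell in each genotype, against the same shares of all genes. Their median interaction was 0.07, and for all 22 the interval lay within -1 to 1. CS, citrate synthase, had an interaction of 0.26 (SE 0.16, unadjusted p 0.127) and SUCLG2, a succinyl-CoA ligase subunit, of 0.18 (SE 0.12, unadjusted p 0.152). ATP5H, an ATP synthase subunit, had 0.25 (SE 0.16, unadjusted p 0.131) and NDUFS3, a subunit of complex I, -0.33 (SE 0.16, unadjusted p 0.0598). Fatty acid oxidation genes had median fasting responses of -0.25 in N298 fat and -0.31 in D298 fat. Of 23 measured, 8 fell and 5 rose in N298 fat, and 10 fell and 2 rose in D298 fat. The shares of all genes that rose were 9.71% and 7.44%. Their median interaction was 0.07, with 3 of 23 positive at an unadjusted p under 0.05, against 3% of all genes, and 0 negative.

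HADHB, a subunit of the mitochondrial trifunctional protein of beta oxidation, had signals of 6999, 7739.9 and 8641 in N298 fasted fat and 4996, 6215 and 6746 in N298 ad lib fat. D298 fat had HADHB signals of 6138, 6479.9 and 8163 when fasted and 5766, 6697 and 7675 when fed. HADHB signals separated fasted from fed N298 arrays and overlapped in D298 fat, with responses of 0.35 in N298 fat (adjusted p 0.00698) and 0.03 in D298 fat (adjusted p 0.871). HADHB had an interaction of 0.32 (SE 0.12, 95% interval 0.07 to 0.58, unadjusted p 0.0154); its other probe sets gave 0.20 and 0.23. ACAA1, the peroxisomal thiolase, responded by 0.32 in N298 fat (adjusted p 0.0398) and -0.01 in D298 fat (adjusted p 0.984) and had an interaction of 0.32 (SE 0.15, unadjusted p 0.0377). ACADL, the long-chain acyl-CoA dehydrogenase, had 0.35 (SE 0.16, unadjusted p 0.0379). CPT1A, which admits fatty acids to mitochondria, rose in both genotypes, by 0.75 in N298 fat and 0.89 in D298 fat, with an interaction of -0.15 (95% interval -0.72 to 0.43). Without D298 ad lib replicate 1, 9 of the 23 oxidation genes were positive at an unadjusted p under 0.05, against a background of 4.18% of genes in that direction. Glycolysis and glucose uptake genes had a median interaction of -0.17, 13 of 18 negative, with responses of -0.69 in N298 fat and -0.39 in D298 fat in the median; without D298 fasted replicate 2 the median interaction was -0.32. PFKP, a phosphofructokinase, rose in D298 fat and did not pass the test in N298 fat, with responses of 0.03 in N298 fat (adjusted p 0.919) and 0.55 in D298 fat (adjusted p 0.00798) and an interaction of -0.52 (SE 0.19, unadjusted p 0.0114). LDHB, a lactate dehydrogenase subunit, had an interaction of 0.22 (SE 0.12, unadjusted p 0.079).

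Lipolysis and lipid droplet genes had responses of 0.15 in N298 fat and 0.17 in D298 fat in the median. Of 12 measured, 3 rose and 1 fell in each genotype, and the median interaction was 0.04. Of all genes 9.71% rose and 12.8% fell in N298 fat, and 7.44% rose and 11.7% fell in D298 fat. LIPE, hormone-sensitive lipase, had signals of 8774, 9721 and 11221 in N298 fasted fat and 7678, 8458 and 10604 in N298 ad lib fat. D298 fat had LIPE signals of 7539, 8411 and 12096 when fasted and 6478, 8021 and 10067 when fed. All 4 groups overlapped, and the LIPE interaction was 0.03 (95% interval -0.29 to 0.35). PNPLA2, the lipase that starts triglyceride breakdown, had an interaction of 0.34 (95% interval -0.06 to 0.74), and its second probe set -0.16. MGLL, which completes the breakdown, had 0.34 (95% interval -0.03 to 0.71), and PLIN2, a lipid droplet coat protein, -0.55 (95% interval -1.18 to 0.08). ANGPTL4, a fasting-induced inhibitor of lipoprotein lipase, rose in both, by 1.47 in N298 fat and 1.17 in D298 fat, with an interaction of 0.30 (95% interval -0.76 to 1.35). Adrenergic and cyclic AMP genes had a median interaction of 0.10 with 2 of 14 rising in each genotype, against 9.71% of all genes in N298 fat and 7.44% in D298 fat. ADRB1, the beta 1 adrenergic receptor, had an interaction of -0.74 (SE 0.36, unadjusted p 0.0569), with 0.06 in a dimmer probe set, and ADRA2A, a receptor that inhibits lipolysis, of -0.71 (SE 0.46, unadjusted p 0.143). Both were dim, with mean log2 signals of 6.75 for ADRB1 and 5.34 for ADRA2A, against 7.40 for the median probe set.

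Leptin, the fat hormone that reports energy stores to the brain, varied widely between gilts of each group. LEP, which encodes it, had signals of 99.6, 560.4 and 959 in N298 fasted fat and 358, 649.8 and 1584 in N298 ad lib fat. D298 fat had LEP signals of 101, 245 and 1459 when fasted and 312, 602 and 1307 when fed. LEP groups overlapped throughout, with responses of -0.57 in N298 fat (adjusted p 0.527) and -1.09 in D298 fat (adjusted p 0.177) and an interaction of 0.52 (95% interval -0.97 to 2.001). ADIPOQ, adiponectin, had signals of 20044, 28150.3 and 33788 in N298 fasted fat and 15099, 25332 and 27699.5 in N298 ad lib fat. D298 fat had ADIPOQ signals of 21044, 28038 and 30764 when fasted and 24249.5, 26402 and 29426 when fed. ADIPOQ groups overlapped too, and the interaction was 0.24 (95% interval -0.19 to 0.67). NAMPT, which makes a precursor of NAD, had 0.29 (95% interval -0.15 to 0.73), CFD, complement factor D from fat cells, -0.28 (95% interval -0.71 to 0.16), and IL6, a cytokine, 0.02 (95% interval -1.01 to 1.05). The 11 adipokines measured had a median interaction of 0.15. Of 17 adipogenic and metabolic regulators 2 were positive at an unadjusted p under 0.05, PPARG and ADIPOR2, against 3% of all genes, and the list median was 0.04. PPARG, the nuclear receptor that directs fat cell formation and lipid storage, had signals of 3658, 4262 and 5593 in N298 fasted fat and 3411, 4081 and 5648 in N298 ad lib fat. D298 fat had PPARG signals of 3012, 3874 and 4447 when fasted and 3558, 5036 and 5849.8 when fed. Fasting lowered PPARG in D298 fat by the limma test and its groups overlapped, with responses of 0.05 in N298 fat (adjusted p 0.823) and -0.39 in D298 fat (adjusted p 0.0239). PPARG had an interaction of 0.44 (SE 0.16, 95% interval 0.11 to 0.77, unadjusted p 0.0106). ADIPOR2, an adiponectin receptor, fell in both, with responses of -0.41 in N298 fat and -0.74 in D298 fat and an interaction of 0.33 (SE 0.14, unadjusted p 0.0327); its second probe set gave the opposite sign, -0.23. PPARGC1A, a coactivator of mitochondrial genes, had 0.87 (95% interval -0.90 to 2.65).

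MC4R itself was near background. MC4R, measured by 1 probe set, had signals of 4.82, 19.9 and 31 in N298 fasted fat and 0.947, 20.2 and 32.9 in N298 ad lib fat. D298 fat had MC4R signals of 1.57, 13 and 16.3 when fasted and 4.54, 20.3 and 41.8 when fed. These signals lie far below the array medians and overlap between all groups, and the interaction was 1.66 (95% interval -0.68 to 4.002). Of 9 measured genes of the melanocortin system 2 lay above the median signal, and the list median was -0.05. ASIP, agouti signalling protein, which blocks melanocortin receptors, had signals of 58.7, 117 and 159.6 in N298 fasted fat and 145, 204 and 361 in N298 ad lib fat. D298 fat had ASIP signals of 79.3, 115 and 164 when fasted and 129, 158 and 229.9 when fed. ASIP fell in N298 fat and missed the threshold in D298 fat, with responses of -1.04 in N298 fat (adjusted p 0.000445) and -0.47 in D298 fat (adjusted p 0.0974) and an interaction of -0.57 (SE 0.26, unadjusted p 0.0385).

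Medians of further lists were 0.06 for 19 insulin, FOXO and glucocorticoid response genes, 0.03 for 16 growth hormone and IGF genes, -0.04 for 7 clock genes and 0.01 for 9 genes of glyceroneogenesis and gluconeogenesis. GADD45A, a growth arrest gene, rose in N298 fat, with responses of 0.84 in N298 fat (adjusted p 0.0122) and 0.20 in D298 fat (adjusted p 0.628) and an interaction of 0.64 (SE 0.32, unadjusted p 0.056). IRS1, an insulin receptor substrate read by a dim probe set, had an interaction of 1.60 (95% interval -0.13 to 3.33). IGFBP6, which binds insulin-like growth factor II, fell in both genotypes, with responses of -1.57 in N298 fat (adjusted p 0.000161) and -0.78 in D298 fat (adjusted p 0.0399) and an interaction of -0.78 (SE 0.35, unadjusted p 0.035). STAT5B, a growth hormone signal transducer, had 0.24 (SE 0.17, unadjusted p 0.161), and its second probe set -0.11. The clock genes DBP and ARNTL, which peak at opposite phases of the daily cycle, had interactions of 0.40 (SE 0.26, unadjusted p 0.141) and -0.41 (SE 0.30, unadjusted p 0.188). GPT, alanine aminotransferase, fell in both, with responses of -1.41 in N298 fat and -1.83 in D298 fat and an interaction of 0.43 (SE 0.23, unadjusted p 0.0802). PCK1, which makes glycerol phosphate and glucose precursors, had an interaction of -0.13 (95% interval -1.67 to 1.41). Its mitochondrial counterpart PCK2, read by a dim probe set, had 0.58 (95% interval -0.13 to 1.29), and a still dimmer probe set of PCK2 gave -0.25. Thermogenesis and creatine genes had a median of -0.50 with quartiles of -1.24 and 0.04; several of them (CKM, CKMT2, ATP2A1, RYR1, SLN) are muscle genes. That median was -0.07 with the skeletal muscle marker mean as a covariate, 0.19 without the 4 arrays with hepatocyte transcripts, -0.08 over its genes above the median signal and -0.19 without N298 ad lib replicate 3. UCP3, a mitochondrial carrier of muscle and fat, rose in N298 fat, with responses of 0.72 in N298 fat (adjusted p 0.014) and 0.03 in D298 fat (adjusted p 0.955) and an interaction of 0.69 (SE 0.27, unadjusted p 0.0201). UCP2, a related carrier, had -0.47 (95% interval -1.12 to 0.18).

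Among genes above the median signal, those with the smallest unadjusted interaction p included FBLN1, TIMP1, PRELP, THY1, C1R, SERPING1, C3, IFI30 and TAPBP, each with a negative interaction. The 20 genes with the smallest p had p from 0.000111 to 0.00169, an adjusted p of 0.805 each (limma), and sizes from 0.38 to 2.51 on the log2 scale; 12 were negative and 8 positive. For 12 of the 20 the fasting response was called in N298 fat alone and for 7 in D298 fat alone. This does not show that the genotypes differ, since the interaction itself did not pass. Of all 6765 genes 22.5% were called in N298 fat and 19.2% in D298 fat, whether or not in the other genotype. The 20 were chosen for their interaction p on these arrays, which favours a call in 1 genotype alone. Their sizes are therefore a description.

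The complement genes C1R, SERPING1 and C3, of which C3 alone is in a list used here, rose after fasting in D298 fat and did not pass the test in N298 fat. C1R, a serine protease of the first complement component, had signals of 2889.7, 4739.7 and 6205 in N298 fasted fat and 3690.0, 4795 and 5846 in N298 ad lib fat. D298 fat had C1R signals of 5495, 6541 and 12567 when fasted and 2186, 3568 and 6612 when fed. The fasted D298 arrays were mostly the higher ones, and C1R had responses of -0.07 in N298 fat (adjusted p 0.856) and 0.998 in D298 fat (adjusted p 0.000885). C1R had an interaction of -1.07 (SE 0.26, 95% interval -1.60 to -0.54, unadjusted p 0.000461). SERPING1, the inhibitor of C1R and of its partner C1S, had signals of 5436, 8858 and 9171 in N298 fasted fat and 7678, 9146 and 10354 in N298 ad lib fat. D298 fat had SERPING1 signals of 9119, 9953 and 13439.9 when fasted and 6040.1, 7188 and 11742 when fed. SERPING1 groups overlapped, with responses of -0.19 in N298 fat (adjusted p 0.326) and 0.46 in D298 fat (adjusted p 0.011). SERPING1 had an interaction of -0.65 (SE 0.16, 95% interval -0.99 to -0.31, unadjusted p 0.000768). C3, the central component of complement, which liver also makes in quantity, had signals of 193, 378 and 752 in N298 fasted fat and 209.8, 958 and 1168 in N298 ad lib fat. D298 fat had C3 signals of 315, 905 and 3086 when fasted and 158, 209.6 and 826 when fed. C3 spread over a wide range within each group and overlapped, and its responses were -0.89 in N298 fat (adjusted p 0.255) and 1.61 in D298 fat (adjusted p 0.0328). C3 had an interaction of -2.51 (SE 0.69, 95% interval -3.94 to -1.07, unadjusted p 0.00163); without the 4 arrays with hepatocyte transcripts it was -1.94 (unadjusted p 0.00307).

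Of the 21 measured genes of the acute phase, inflammation and complement list, 2 rose in N298 fat and 6 in D298 fat, against 9.71% of all genes in N298 fat and 7.44% in D298 fat. The median interaction was -0.22 (-0.12 without the 4 arrays with hepatocyte transcripts), 15 were negative, and 5 were negative at an unadjusted p under 0.05 against 3.71% of all genes. The 5 were C3, C1QA, CFB, C4A and ICAM1. Without the 4 arrays with hepatocyte transcripts 3 genes of the list were negative at that level, against 2.41% of all genes. CFB, complement factor B, had -1.37 (SE 0.53, unadjusted p 0.0181), C4A, complement component 4, -0.90 (SE 0.37, unadjusted p 0.0227), and ICAM1, an adhesion molecule, -0.54 (SE 0.24, unadjusted p 0.0351). The cytokine IL1B and the acute phase gene ITIH4 had interactions of 0.04 and 0.00. In the interferon response list 15 of 19 genes were negative, the median was -0.35, and 5 were negative and 0 positive at that level, against 3.71% and 3% of all genes. GBP1, an interferon-induced GTPase, rose in D298 fat, with responses of -0.01 in N298 fat (adjusted p 0.985) and 0.57 in D298 fat (adjusted p 0.0119) and an interaction of -0.57 (SE 0.20, unadjusted p 0.0107); its 2 other probe sets gave -0.64 and -0.55. IFI35 had -0.62 (SE 0.25, unadjusted p 0.0219), and MX1, an antiviral GTPase, -0.93 (SE 0.39, unadjusted p 0.0253).

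IFI30, a lysosomal thiol reductase that prepares antigens for presentation, had signals of 459.7, 662 and 828 in N298 fasted fat and 842, 1072 and 1785 in N298 ad lib fat. D298 fat had IFI30 signals of 693, 910.0 and 1475 when fasted and 482, 727 and 979 when fed. Every N298 fasted array was below every N298 ad lib array for IFI30, and the D298 groups overlapped. IFI30 responses were -0.80 in N298 fat (adjusted p 0.00494) and 0.34 in D298 fat (adjusted p 0.274). IFI30 had an interaction of -1.14 (SE 0.26, 95% interval -1.69 to -0.59, unadjusted p 0.000321), and its dimmer probe set gave -2.25. TAPBP, tapasin, which helps load peptides onto class I molecules, fell in N298 fat, with responses of -0.56 in N298 fat (adjusted p 0.00263) and 0.14 in D298 fat (adjusted p 0.5) and an interaction of -0.71 (SE 0.17, unadjusted p 0.000471). ARPC1B, a subunit of the actin-branching Arp2/3 complex, rose in D298 fat, with responses of -0.29 in N298 fat (adjusted p 0.108) and 0.40 in D298 fat (adjusted p 0.0274) and an interaction of -0.69 (SE 0.17, unadjusted p 0.000479). GUSB, the lysosomal beta-glucuronidase, fell in N298 fat, with responses of -0.89 in N298 fat (adjusted p 0.000223) and -0.10 in D298 fat (adjusted p 0.727) and an interaction of -0.79 (SE 0.20, unadjusted p 0.000946). YIF1A, a protein of transport between endoplasmic reticulum and Golgi, also fell in N298 fat, with responses of -0.68 in N298 fat (adjusted p 5.29e-05) and -0.15 in D298 fat (adjusted p 0.349) and an interaction of -0.53 (SE 0.13, unadjusted p 0.000825).

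Markers of immune cells had negative interactions too. Of 11 measured macrophage markers of 16 listed, 10 had a negative interaction, the median was -0.86, and 6 were negative at an unadjusted p under 0.05, against 3.71% of all genes. The mean over the list had a range of 7.72 to 8.41 in N298 fasted, 8.09 to 9.53 in N298 ad lib, 7.77 to 8.68 in D298 fasted and 6.97 to 8.16 in D298 ad lib fat. No marker was at 0 on any array. On leaving out each array in turn the macrophage median lay between -1.05 and -0.68, and the count at that level between 4 without D298 ad lib replicate 1 and 9. Of 11 lymphocyte markers all 11 were negative, with a median of -0.67 and 4 at that level, against the same 3.71%, but only 2 lay above the median signal. Without D298 ad lib replicate 1 the lymphocyte median was -0.48, 9 were negative, and 2 were negative at that level, against 4.2% of all genes. Without the 4 arrays with hepatocyte transcripts the median was -0.64 and 0 were negative at that level. The lymphocyte marker mean lay at 5.99 to 6.47 in N298 fasted, 5.84 to 7.17 in N298 ad lib, 6.27 to 6.68 in D298 fasted and 5.51 to 6.33 in D298 ad lib fat. The part of these cells in the complement, interferon and antigen-handling values was not tested. FCER1G, the signalling chain of Fc receptors on macrophages and other leukocytes, had signals of 302, 331 and 529.9 in N298 fasted fat and 399, 514 and 1739 in N298 ad lib fat. D298 fat had FCER1G signals of 362, 452 and 592 when fasted and 241, 364 and 440.4 when fed. FCER1G fell in N298 fat by the limma test, with responses of -0.72 in N298 fat (adjusted p 0.0458) and 0.46 in D298 fat (adjusted p 0.236) and an interaction of -1.18 (SE 0.34, unadjusted p 0.00225). C1QA, a macrophage product that starts the classical complement pathway, had responses of -0.64 in N298 fat (adjusted p 0.221) and 0.67 in D298 fat (adjusted p 0.202) and an interaction of -1.31 (SE 0.46, unadjusted p 0.0102). The T cell genes CD3D and CD8A rose in D298 fat, by 0.97 and 0.65 (adjusted p 0.0485 and 0.0438), with interactions of -1.17 and -0.75. These marker genes were picked for printing after their values were seen.

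FBLN1, TIMP1 and PRELP, 3 of the 20, code for secreted proteins of the matrix; of these, TIMP1 alone is in the matrix list. FBLN1, fibulin 1, a secreted glycoprotein of matrix fibres, had signals of 435, 677 and 778 in N298 fasted fat and 917, 1077 and 1289 in N298 ad lib fat. D298 fat had FBLN1 signals of 629, 1168 and 1513 when fasted and 537, 875 and 1745 when fed. All N298 fasted arrays were below all N298 ad lib arrays, and the D298 groups overlapped; the highest D298 ad lib signal was that of replicate 1. FBLN1 fell in N298 fat, with responses of -0.81 in N298 fat (adjusted p 0.00161) and 0.30 in D298 fat (adjusted p 0.276). FBLN1 had an interaction of -1.11 (SE 0.23, 95% interval -1.59 to -0.62, unadjusted p 0.000111), the smallest p of all probe sets, and without D298 ad lib replicate 1 it was -1.27 (SE 0.19, adjusted p 0.0212). PRELP, a small leucine-rich proteoglycan that binds collagen, had signals of 1074, 2178 and 2531 in N298 fasted fat and 926, 1805 and 2329 in N298 ad lib fat. D298 fat had PRELP signals of 1562, 3791 and 5593 when fasted and 485, 1364 and 3133 when fed. PRELP rose on fasting in D298 fat, with overlap of the groups through replicate 1, and responses were 0.27 in N298 fat (adjusted p 0.475) and 1.39 in D298 fat (adjusted p 0.000214). PRELP had an interaction of -1.12 (SE 0.31, 95% interval -1.76 to -0.49, unadjusted p 0.00149), and without that array -1.40 (SE 0.20, adjusted p 0.0212). TIMP1, a secreted inhibitor of matrix metalloproteinases, had signals of 341, 429 and 547 in N298 fasted fat and 601, 731 and 867 in N298 ad lib fat. D298 fat had TIMP1 signals of 487, 637 and 898 when fasted and 469.8, 581 and 780.4 when fed. The N298 groups did not overlap for TIMP1 and the D298 groups did, with responses of -0.74 in N298 fat (adjusted p 0.000698) and 0.09 in D298 fat (adjusted p 0.749). TIMP1 had an interaction of -0.83 (SE 0.19, 95% interval -1.23 to -0.43, unadjusted p 0.000321), and without that array -0.93 (SE 0.18, adjusted p 0.0969).

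Beyond those, AEBP1 and QSOX1 are given because they passed the test without D298 ad lib replicate 1, and so were chosen after their values were seen. AEBP1, a secreted protein of the matrix in fibroblasts and preadipocytes, given here by the dimmer of its 2 probe sets, had signals of 87.5, 162 and 327 in N298 fasted fat and 73.9, 238 and 362 in N298 ad lib fat. D298 fat had AEBP1 signals of 216, 316 and 505 when fasted and 55, 105 and 759.5 when fed. AEBP1 rose in D298 fat, with responses of -0.25 in N298 fat (adjusted p 0.723) and 1.28 in D298 fat (adjusted p 0.0213), and the groups overlapped. AEBP1 had an interaction of -1.53 (SE 0.505, 95% interval -2.58 to -0.48, unadjusted p 0.00662), and without that array -2.01 (SE 0.31, adjusted p 0.0212). Its brighter probe set gave -1.02 with all arrays and -1.36 without that array, and passed the adjusted test in neither fit. QSOX1, a secreted enzyme that forms disulfide bonds in matrix proteins, had signals of 523, 587 and 658 in N298 fasted fat and 550.5, 668 and 871 in N298 ad lib fat. D298 fat had QSOX1 signals of 665, 848 and 1181 when fasted and 434, 504 and 1059.7 when fed. QSOX1 rose in D298 fat as well, with responses of -0.19 in N298 fat (adjusted p 0.513) and 0.63 in D298 fat (adjusted p 0.0143). QSOX1 had an interaction of -0.83 (SE 0.23, 95% interval -1.32 to -0.34, unadjusted p 0.00214), and without that array -1.03 (SE 0.17, adjusted p 0.0346); 2 dimmer probe sets gave -0.25 and 0.44. THY1, a surface glycoprotein of stromal cells, had signals of 1901, 3124 and 4998 in N298 fasted fat and 4302, 7226 and 9657 in N298 ad lib fat. D298 fat had THY1 signals of 4211, 4819.6 and 7720.4 when fasted and 4328, 6310.0 and 11648 when fed. THY1 fell in N298 fat, with responses of -1.19 in N298 fat (adjusted p 3.39e-05) and -0.33 in D298 fat (adjusted p 0.207), and the groups overlapped. THY1 had an interaction of -0.86 (SE 0.23, 95% interval -1.33 to -0.39, unadjusted p 0.00104), and its other probe sets gave -0.95 and -2.09.

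Of 23 extracellular matrix genes 20 had a negative interaction, with a median of -0.27 against 0.01 over all probe sets. TIMP1, DCN, COL1A2 and FN1 were the 4 negative at an unadjusted p under 0.05, against 3.71% of all genes, and 0 were positive; without D298 ad lib replicate 1, 6 were negative, against 4.2%, and the median was -0.32. On fasting, 8 of the 23 fell and 4 rose in N298 fat, against 12.8% and 9.71% of all genes. In D298 fat 3 fell and 4 rose, against 11.7% and 7.44%. COL1A2, a chain of type I collagen, had an interaction of -0.95 (SE 0.39, unadjusted p 0.0262), COL3A1, type III collagen, of -0.52 (SE 0.47, unadjusted p 0.276), FN1, fibronectin, of -0.51 (SE 0.22, unadjusted p 0.0314), and DCN, decorin, of -0.33 (SE 0.13, unadjusted p 0.018); a probe set of DCN near background gave 0.90. LUM, POSTN and THBS2, which are matrix proteins of stromal cells too, had values of -0.03, -0.04 and -0.02. The fibroblast and preadipocyte markers, which share 4 measured genes with the matrix list, had 8 of 9 negative and a median of -0.33, which was -0.18 without N298 fasted replicate 1. Their mean log2 signal was 11.12 to 11.67 in N298 fasted, 11.55 to 12.28 in N298 ad lib, 11.48 to 12.10 in D298 fasted and 11.68 to 12.21 in D298 ad lib fat, and the share of such cells in the matrix values was not tested. With the skeletal muscle marker mean as a covariate, FBLN1, PRELP and TIMP1 had interactions of -1.05, -1.06 and -0.78.

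**Figure D4:**
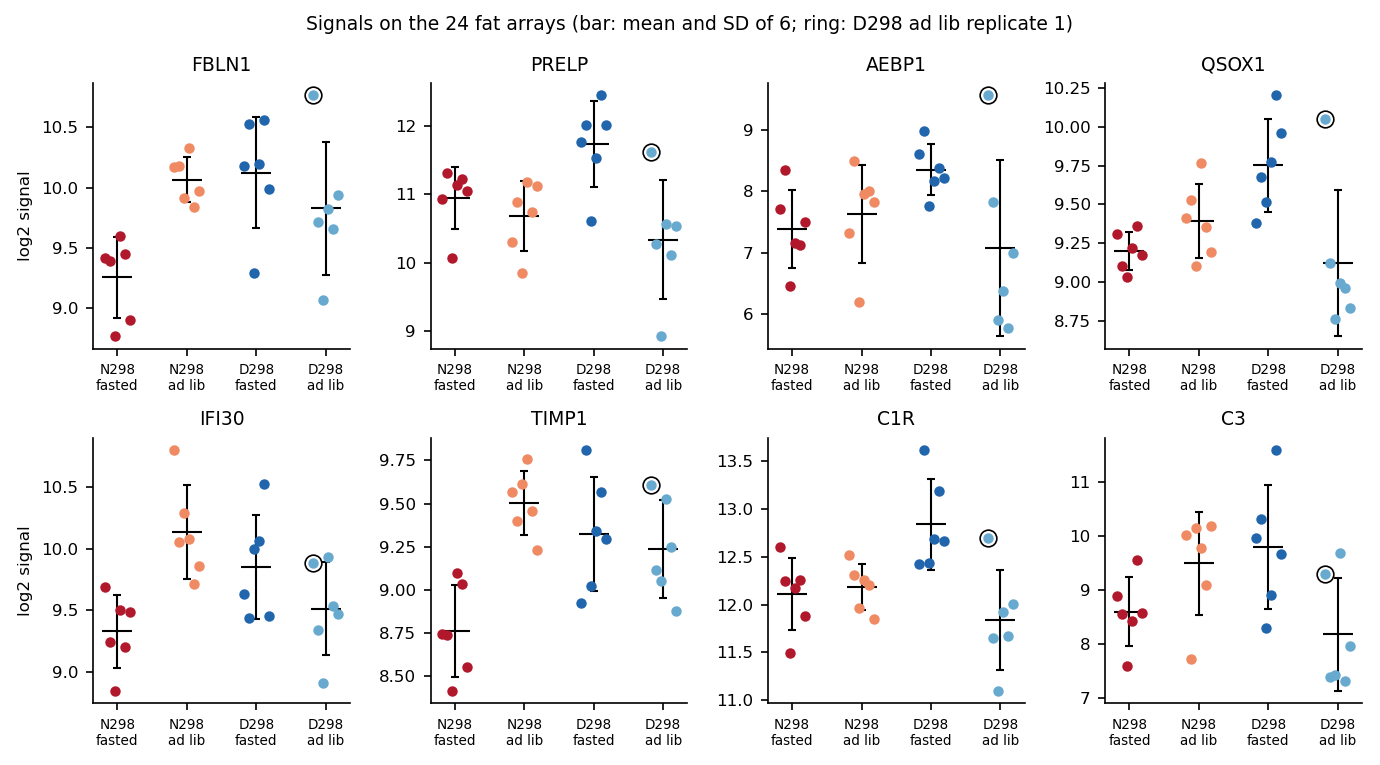
Log2 signal of 8 genes described in the text on each fat array, 1 panel per gene, in the order N298 fasted, N298 ad lib, D298 fasted, D298 ad lib; points are arrays, bars the mean and SD of 6, and the ring marks D298 ad lib replicate 1. FBLN1, TIMP1 and IFI30 are lower on all N298 fasted than on all N298 ad lib arrays, and the ring is the highest D298 ad lib point for FBLN1, PRELP, AEBP1, QSOX1, C1R and TIMP1.

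The 8 positive interactions among the 20 smallest p-values ranged over 0.38 to 0.67, and belonged to genes of varied function. GALK2, a sugar kinase of the galactokinase family, had signals of 837, 1005 and 1103 in N298 fasted fat and 641, 703 and 774 in N298 ad lib fat. D298 fat had GALK2 signals of 702, 772 and 1004 when fasted and 680.5, 834 and 946 when fed. N298 fasted arrays were all above N298 ad lib arrays, and the D298 groups overlapped. GALK2 rose in N298 fat, with responses of 0.51 in N298 fat (adjusted p 0.00109) and -0.07 in D298 fat (adjusted p 0.734), and had an interaction of 0.57 (SE 0.14, 95% interval 0.28 to 0.86, unadjusted p 0.000488). FGGY, a carbohydrate kinase, had signals of 882, 964 and 1055 in N298 fasted fat and 310.2, 442 and 574 in N298 ad lib fat. D298 fat had FGGY signals of 423, 702 and 776 when fasted and 416, 465 and 530.0 when fed. FGGY rose in both genotypes, with responses of 1.17 in N298 fat (adjusted p 1.84e-06) and 0.49 in D298 fat (adjusted p 0.00764), and had an interaction of 0.67 (SE 0.17, 95% interval 0.33 to 1.02, unadjusted p 0.000625). GRSF1, a protein that binds RNA in mitochondria, had signals of 4538, 4897 and 5187 in N298 fasted fat and 2509, 3423 and 3575 in N298 ad lib fat. D298 fat had GRSF1 signals of 3530.3, 3725 and 4386 when fasted and 2656, 3557 and 3992 when fed. GRSF1 rose in N298 fat, with responses of 0.60 in N298 fat (adjusted p 5.17e-05) and 0.13 in D298 fat (adjusted p 0.356), and had an interaction of 0.47 (SE 0.12, 95% interval 0.22 to 0.72, unadjusted p 0.00078). HMGN3, a nucleosome-binding protein, fell in D298 fat, with responses of -0.05 in N298 fat (adjusted p 0.732) and -0.45 in D298 fat (adjusted p 0.000555) and an interaction of 0.39 (SE 0.11, unadjusted p 0.00169). AMCF-II, a porcine chemokine, rose in N298 fat by its brightest probe set, with responses of 0.31 in N298 fat (adjusted p 0.00699) and -0.08 in D298 fat (adjusted p 0.577) and an interaction of 0.38 (SE 0.11, unadjusted p 0.00163). Its 2 other probe sets had mean log2 signals of 2.11 and 3.71, against 12.40 for that one. They gave responses of -0.79 and 0.35 in N298 fat. Less studied genes were C6H18orf21 with 0.64 (SE 0.17, unadjusted p 0.000982), C4H1orf54 with 0.51 (SE 0.14, unadjusted p 0.00135) and LOC102163508 with 0.54 (SE 0.14, unadjusted p 0.000896).

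Genes of protein synthesis and turnover gave small values: the 27 proteasome genes had a median interaction of 0.01, the 21 autophagy and lysosome genes 0.01, the 19 genes of protein folding in the endoplasmic reticulum -0.05 and the 17 heat shock genes -0.10. On fasting 14 proteasome genes fell in N298 and 13 in D298 fat, against 12.8% and 11.7% of all genes. All 27 interaction intervals of the proteasome genes lay within -1 to 1. PSMD4, a ubiquitin receptor of the proteasome, had an interaction of -0.41 (SE 0.16, unadjusted p 0.0166), and PSMB3, a core subunit, of -0.43 (SE 0.22, unadjusted p 0.0674). The small heat shock genes CRYAB and HSPB1 fell in both genotypes, with responses of -1.22 in N298 fat and -0.54 in D298 fat for CRYAB and -1.55 in N298 fat and -1.03 in D298 fat for HSPB1. CRYAB had an interaction of -0.68 (SE 0.25, unadjusted p 0.0119) and HSPB1 of -0.52 (SE 0.24, unadjusted p 0.0417). PDIA3, a disulfide isomerase of the endoplasmic reticulum, had -0.32 (SE 0.11, unadjusted p 0.0112) and DDIT3, a stress transcription factor, 0.62 (SE 0.25, unadjusted p 0.0224). The lysosomal proteases CTSZ and CTSH had -0.27 (SE 0.10, unadjusted p 0.0116) and -0.47 (SE 0.18, unadjusted p 0.016). Ribosomal protein genes had 37 of 41 positive values around a median of 0.12, none called on fasting in either genotype, and 3 positive at an unadjusted p under 0.05 against 3% of genes; with quantile normalisation the median was 0.038. RPL11 had 0.36 (SE 0.12, unadjusted p 0.00687) and RPL23 0.24 (SE 0.10, unadjusted p 0.026); 2 other probe sets of RPL23 gave 0.32 and -0.21. Of 20 cell cycle genes, 3 of them above the median signal, 8 fell in N298 and 9 in D298 fat. The shares of all genes that fell were 12.8% and 11.7%, and the median interaction of the cell cycle list was 0.16. CDC20, a mitotic activator, had 1.80 (SE 0.87, unadjusted p 0.0519) and CDK2, a cyclin-dependent kinase, -0.37 (SE 0.20, unadjusted p 0.0785); a dimmer probe set of CDK2 gave 0.96. Markers of muscle and liver had wide values that moved with the arrays left out. The median interaction of the skeletal muscle list was -1.17 with all arrays and -2.08 without D298 ad lib replicate 1. Without the 4 arrays with hepatocyte transcripts it was 0.503. The hepatocyte list had medians of -1.40, -1.41 and -0.17 in the same fits. On leaving out each array in turn both medians stayed negative, at -2.17 to -0.20 for the muscle list and -2.34 to -0.61 for the hepatocyte list. Other marker medians were 0.19 for 4 erythroid markers, 0.10 for 11 endothelial markers, -0.30 for 6 smooth muscle and pericyte markers, -0.32 for 5 keratinocyte markers, -0.20 for 6 Schwann cell and nerve markers and 0.18 for 10 adipocyte markers. Single arrays moved some of these: without N298 fasted replicate 5 the keratinocyte median was 0.09, without D298 fasted replicate 4 the Schwann cell and nerve median 0.08, and without N298 ad lib replicate 3 the smooth muscle and pericyte median -0.05. TNNT3 and TPM2 of muscle and SERPINA1 and AHSG of liver were picked for the smallest interaction p in their lists. Their interactions were -2.68, -1.01, -2.24 and -1.25, with unadjusted p between 0.155 and 0.277.

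Without D298 ad lib replicate 1, 5 probe sets passed an adjusted p under 0.05 (limma), 0.0208% of all, and all 5 had a negative interaction. They were PRELP, FBLN1, AEBP1 by its dimmer probe set alone, QSOX1 and a probe set with no gene symbol. The unnamed probe set had a value of -1.005 (SE 0.17, adjusted p 0.0347), against -0.76 (SE 0.26, unadjusted p 0.00818) with all arrays. The D298 ad lib signals of replicate 1 were 1745 for FBLN1, 3133 for PRELP, 759.5 for AEBP1 and 1059.7 for QSOX1, the highest of that group in each case. At an unadjusted p under 0.05 the counts of genes were 284 negative (4.2%) and 283 positive (4.18%). The calls depended on that array and on the model: 5 were made with quantile normalisation, with the brighter probe sets alone, with 32 added to each signal or with array weights, and 0 with each array centred on its median (smallest adjusted p 0.0501), without the replicate number as a block (0.225), with it as a random block (0.144) or without the variance trend (0.0707). When each of the other 23 arrays was left out as well, between 0 and 8 probe sets were called, and 6 of these fits called none. PRELP was among the calls in 17 of the 23, FBLN1 in 13, AEBP1 in 11, QSOX1 in 6 and the unnamed probe set in 4. Without the 4 arrays with hepatocyte transcripts no probe set was called, and 1119 had an unadjusted p under 0.05; without those and D298 ad lib replicate 1 the smallest adjusted p was 0.227.

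**Figure D5:**
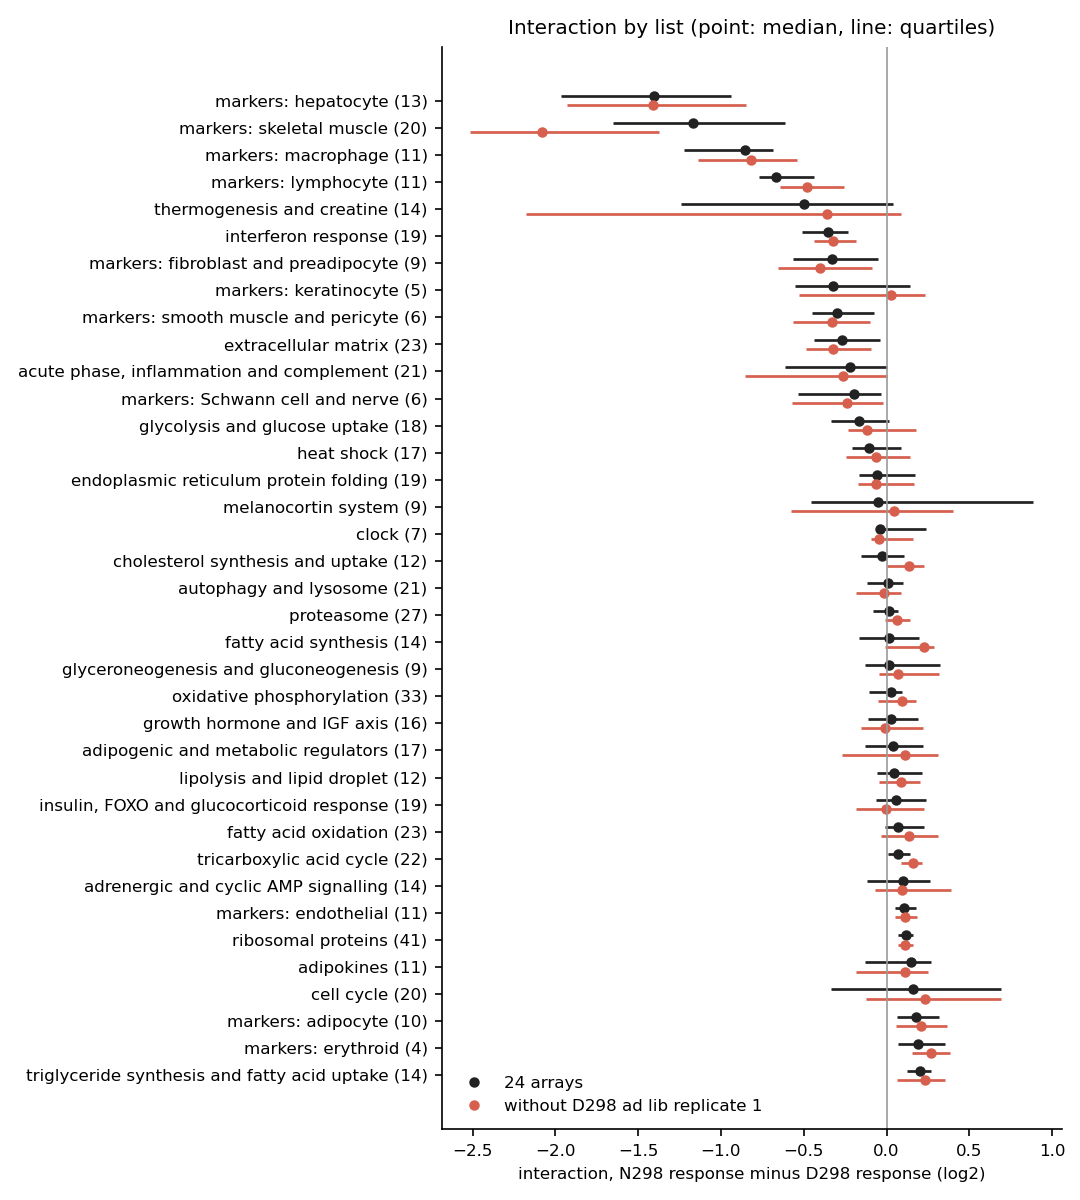
Median (point) and quartiles (bar) of the log2 interaction over the genes of each list and marker set, with all 24 fat arrays and without D298 ad lib replicate 1; 0 is an equal fasting response in both genotypes. Macrophage, lymphocyte, interferon and matrix lists lie below 0 in both settings, the triglyceride synthesis and uptake list lies above 0 in both, and the skeletal muscle and hepatocyte lists are wide.

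The same contrast in the 24 liver arrays also called 0 probe sets, with 1390, 5.79%, at an unadjusted p under 0.05, 463 positive and 927 negative. Of the 20 genes above, 12 had the same sign in liver, 2 of them with an unadjusted p under 0.05: TIMP1 with -0.87 (p 0.0267) and FGGY with 0.92 (p 0.00077). FBLN1 had a value of -0.14 in liver (unadjusted p 0.473). The 24 gilts gave both the fat and the liver arrays, so the contrasts share animals, and the difference between tissues was not tested.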

How the data were processed

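Per the labels, total RNA of pig fat was purified on columns with DNase and given a biotin label in a one-cycle procedure for an Affymetrix porcine array. The submitters' processing notes name affy and MAS5 without versions. The deposited values are linear signal intensities that the authors scaled: the mean without the lowest and highest 2% was 500 on every array. Log2 was taken with nothing added, since no signal was 0. Of 24123 probe sets, 124 controls were left out. The supplied platform annotation names 1 gene for 10069 probe sets, more than 1 for 198 and none for 13732; gene IDs of 9961 matched RefSeq, without a change of symbol. Each of 6765 genes was read by its brightest probe set, and other probe sets of a named gene are printed where their sign differs. Genome positions and sequences were not used here.

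Groups and replicate numbers came from the labels. A linear model of 4 groups plus replicate number as a block of 6 levels was fitted to the 24 fat arrays in R 4.3.3 with the lmFit and eBayes functions of limma 3.58.1 (variance trend on, 15 residual degrees of freedom), 2-sided, with Benjamini-Hochberg adjustment and 0.05 as the threshold. The block was kept because the design text names a block design. Named are the 20 genes with the smallest interaction p and the 5 largest rises and falls on fasting among genes above the median signal, the 2 members of each of 26 lists with the smallest p, and 18 genes by name. Outside this rule, AEBP1, QSOX1, CFB, C4A, ICAM1, IL1B, ITIH4, MX1, ACADL, COL1A2, COL3A1, FN1, LUM, POSTN and THBS2 were named after their values were seen. So were the cell type markers FCER1G, CD3D, CD8A, TNNT3, TPM2, SERPINA1 and AHSG, taken for the smallest interaction p in their marker lists. The rule on D298 ad lib replicate 1, the genes and the lists were chosen with earlier results of these data known. Lists are described by counts and medians, without a test. P-values measure the spread between gilts within groups. The code was tested on simulated data. Alternatives were quantile normalisation, median centring, a filter on dim signal, 32 added before log2, no block or a random block, array weights, no variance trend, and fits that drop a replicate number or an array in turn. Added after seeing the data were the fits without the 4 arrays with hepatocyte transcripts and with skeletal muscle markers as a covariate. Python 3.11.15 with pandas 2.3.3 and Matplotlib 3.10.9 drew the figures.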

Additional observations from a re-analysis of the deposited data

Results flagged for a closer look

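An array was singled out where the gap to its nearest neighbour as a share of the range of its group of 6 exceeded Dixon's 95% critical value. This happened in 25 of 352 groups examined, over 49 genes and 39 array measures, while chance gives about 1 in 20. Values are log2 signals unless stated.

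D298 ad lib replicate 1 was lowest in its group for the synthesis genes FASN (13.80), SLC25A1 (12.46), ACSS2 (10.48) and ACACA (6.64), and highest for QSOX1 (10.05). D298 ad lib replicate 4 was highest for the ratio of 3' to 5' beta actin signal (9.82) and for the hepatocyte marker mean (9.47), and lowest for UCP3 (8.75). D298 ad lib replicate 6 was highest for the means of fatty acid oxidation (11.23) and interferon response genes (9.54).

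D298 fasted replicate 5 was highest for the hepatocyte marker mean (9.62), and lowest for AQP3 (11.56) and the triglyceride synthesis and fatty acid uptake mean (10.27). D298 fasted replicate 1 was highest for GALK2 (9.97) and lowest for SREBF1 (4.52). In D298 fasted fat, replicate 2 was lowest for FGGY (8.72), replicate 3 for the heat shock mean (10.83) and replicate 6 for MC4R (0.65), a signal near background.

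Among N298 fasted arrays, replicate 3 was lowest for PRELP (10.07) and highest for PCK1 (12.72), replicate 4 lowest for ACSS2 (9.20) and replicate 5 lowest for the lipolysis and lipid droplet mean (9.95). Among N298 ad lib arrays, replicate 1 was highest for the macrophage marker mean (9.53), replicate 3 for the oxidative phosphorylation mean (12.74) and replicate 6 for C6H18orf21 (11.06).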

How the results depend on the processing

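The interaction called 0 probe sets in 39 of 41 settings; leaving out a replicate number or array in turn gave 0 to 5, with 4 without replicate 1 and 5 without D298 ad lib replicate 1. Fasting calls were 2649 to 3887 in N298 fat and 1825 to 3641 in D298 fat on leaving out arrays, and 2434 and 1651 without the 4 arrays with hepatocyte transcripts, an alternative chosen after seeing the data that uses fewer arrays. The replicate numbers were not shown to pair gilts: deviations of same-numbered arrays correlated at -0.07 to 0.15, and 7 of 24 arrays correlated best with their own number. Without the replicate block 3408 and 2744 probe sets were called for fasting in N298 and D298 fat, 0 for the interaction and 1191 at an unadjusted p under 0.05; with a random replicate block these were 3665, 2930, 0 and 1295. The sign of the interaction held in all settings for 90 of 103 features in the text. The 13 others had intervals spanning 0, and the cause of their sign changes was not tested. Leaving out arrays in turn gave CYP2B22 -0.50 to 0.56, KLF11 -0.44 to 0.26, AQP3 -0.11 to 0.56, FASN -0.25 to 0.22, PGLYRP2 -0.43 to 0.21, SLC25A1 -0.17 to 0.24, ACSS2 -0.32 to 0.11, SREBF1 -0.53 to 0.19, PCK1 -0.60 to 0.34, IL6 -0.38 to 0.46 and LIPE -0.039 to 0.13. With array weights the values were CYP2B22 -0.11, FASN 0.018, IL6 -0.00904 and LIPE -0.00172; with quantile normalisation SLC25A1 -0.00985. With the skeletal muscle mean as a covariate they were SLC25A1 -0.072, PCK1 0.018 and IL6 -0.082. Without the 4 arrays with hepatocyte transcripts they were AQP3 -0.22, SLC25A1 -0.12, SREBF1 0.11, IL6 -0.12, LIPE -0.16 and ANGPTL4 -0.046; without D298 ad lib replicate 1 as well, CYP2B22 -0.37, AQP3 -0.38, FASN 0.18, ACSS2 0.12, SREBF1 0.12, ADIPOQ -0.031, LIPE -0.19 and ANGPTL4 -0.20. Leaving out single arrays changed the sign of the median interaction of 16 of 37 lists, and apart from the keratinocyte and the Schwann cell and nerve markers these medians lay between -0.054 and 0.10. Intervals were wider for dim probe sets, with a median 95% half-width of 1.37 below the median signal and 0.41 above it.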

Other observations

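Ribosomal protein genes had a positive interaction in 37 of 41 in fat, with a median of 0.12 (0.038 with quantile normalisation), and in 41 of 41 in liver, with a median of 0.24 and 13 at an unadjusted p under 0.05 (2.6% of genes in that direction). Fatty acid oxidation genes had 16 of 23 positive and a median of 0.07 in fat, and 19 of 23 and a median of 0.25 in liver, where 9 reached that level. Interferon response genes were negative in 15 of 19 in fat (median -0.35) and in 18 in liver (median -0.40). Macrophage markers were negative in 10 of 11 in fat (median -0.86) and in 10 in liver (median -0.40). The median over all probe sets was 0.01 in fat and -0.07 in liver, and of all genes 51.1% were negative in fat and 57.3% in liver. No probe set passed the adjusted test in either tissue (limma), the genes of a list are measured on the same arrays, fat and liver came from the same 24 gilts, and the likeness between tissues was not tested.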
